A study of Mus musculus with 6 samples.

Results

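Antigen presentation was followed through 10 genes, of 54429 gene entries counted, in the prefrontal cortex (PFC) of WT and P301S Tau mice. The genes were chosen by symbol: H2-K1, H2-D1, H2-T23, B2m, Tap1 and Tap2 for MHC class I, and Cd74, H2-Aa, H2-Ab1 and H2-Eb1 for MHC class II. Each of the 10 passed the filter on low counts, which left 20409 genes for testing. RNA of whole PFC lysate was sequenced from 2 mice in each of 3 groups, all labelled as 6 months old. WT mice were of the C57BL/6 x C3H background and received vehicle. Tau mice were PS19(P301S), which carry a transgene for mutant human tau driven by the mouse prion promoter, and also received vehicle. UNC0642-treated Tau mice carried the same transgene and received UNC0642, an inhibitor of the H3K9 methyltransferases EHMT1 and EHMT2, at 1 mg/kg a day for 3 days.

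MHC class I molecules display peptides from inside the cell to CD8+ T cells. A heavy chain pairs with beta-2-microglobulin, and the TAP transporter moves peptides made by the proteasome into the endoplasmic reticulum for loading. MHC class II molecules, in contrast, display peptides from endocytosed proteins to CD4+ T cells, and the invariant chain occupies their groove until the peptide is loaded. In the brain, class II is known mainly from microglia, border macrophages and infiltrating cells, whereas class I is also made by endothelial cells and some neurons.

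Total counts ranged from 17005664 to 28972176 per library, and 3 counts corresponded to 0.107 to 0.178 normalized CPM, the count relative to the scaled library size. Some libraries stood apart from the other library of their group. Prnp, part of whose transcript is carried by the transgene, had 1652 CPM in the library labelled WT replicate 1 and 873 CPM in WT replicate 2, against 1470 to 1694 CPM in the 4 Tau libraries, so the library labelled WT replicate 1 was at the level of the transgenic mice. Xist, the transcript of the inactive X chromosome, had 4104 to 8107 counts in WT replicate 2 and both Tau libraries and 2 to 5 counts in the other libraries. Ddx3y on the Y chromosome had the opposite pattern, with 1705 to 2411 counts against 2 to 18. Both UNC0642-treated libraries and the library labelled WT replicate 1 thus had the male pattern, and between treated and untreated Tau libraries the effect of UNC0642 and the sex-linked pattern cannot be told apart. The summed level of 5 oligodendrocyte markers reached 5121 CPM in Tau replicate 2 against 1343 to 2757 CPM elsewhere. Following the rule of the study, a gene was called in edgeR's quasi-likelihood test when it differed by 1.2-fold or more with an unadjusted p under 0.05. Replicates were separate mice, and in this bulk tissue fewer cells of a type and less RNA per cell cannot be told apart.

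The promoters of the class I genes that were called, and for comparison that of H2-Eb1, are given here with exact matches of the listed motifs. Each is the 250 bases before the RefSeq start in the GRCm38.p6 reference, which is of the C57BL/6 strain, written 5′ to 3′, with motif matches in capitals. Positions of matches are counted from this start. For H2-D1 and H2-T23 it lies inside the gene coordinates given below, so these promoters overlap the annotated gene. RefSeq promoters of 7 of the 10 genes were searched. Tap2, Cd74 and H2-Ab1 were not part of this search, so the matches given below say nothing about them. The motifs searched on both strands were the Y box core ATTGG, the X box core AGCAAC, the core of the interferon-stimulated response element (ISRE) GAAANNGAAA, the interferon gamma activated site TTCNNNGAA and the kappa B type GGGANTCC.
H2-K1 promoter, chr17:34000348-34000597, minus strand: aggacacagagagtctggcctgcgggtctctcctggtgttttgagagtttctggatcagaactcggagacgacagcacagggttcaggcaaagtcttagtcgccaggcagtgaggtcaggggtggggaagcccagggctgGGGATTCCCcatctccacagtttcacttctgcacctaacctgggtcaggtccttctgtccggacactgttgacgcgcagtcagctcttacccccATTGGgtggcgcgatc
H2-D1 promoter, chr17:35262844-35263093, plus strand: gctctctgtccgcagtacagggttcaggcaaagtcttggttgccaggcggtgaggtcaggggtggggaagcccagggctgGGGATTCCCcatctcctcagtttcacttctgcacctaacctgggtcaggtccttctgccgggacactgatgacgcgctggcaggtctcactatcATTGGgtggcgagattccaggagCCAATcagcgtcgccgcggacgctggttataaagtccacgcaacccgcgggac
H2-T23 promoter, chr17:36032702-36032951, minus strand: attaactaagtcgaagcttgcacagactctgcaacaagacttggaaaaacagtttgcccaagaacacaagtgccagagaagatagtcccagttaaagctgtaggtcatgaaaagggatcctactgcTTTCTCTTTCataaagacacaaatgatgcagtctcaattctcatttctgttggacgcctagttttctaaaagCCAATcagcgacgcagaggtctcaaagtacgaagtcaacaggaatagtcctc
B2m promoter, chr2:122147437-122147686, plus strand: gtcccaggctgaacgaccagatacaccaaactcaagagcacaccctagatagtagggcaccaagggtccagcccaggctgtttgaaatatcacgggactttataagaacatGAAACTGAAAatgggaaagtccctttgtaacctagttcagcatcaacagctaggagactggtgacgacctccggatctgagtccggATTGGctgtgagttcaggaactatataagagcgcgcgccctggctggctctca
H2-Eb1 promoter, chr17:34305617-34305866, plus strand: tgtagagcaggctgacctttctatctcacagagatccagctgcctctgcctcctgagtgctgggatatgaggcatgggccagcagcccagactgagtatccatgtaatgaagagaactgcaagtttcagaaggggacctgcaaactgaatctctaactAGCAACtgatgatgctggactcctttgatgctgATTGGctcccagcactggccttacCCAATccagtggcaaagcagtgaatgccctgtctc
A kappa B type match lay in H2-K1, from base -110, and in H2-D1, from base -170, and overlapping matches on both strands make up the capitals there. It was present in 3.42% of 27025 promoters of the same length. The ISRE core was matched in H2-T23 and B2m and in 3.04% of all promoters. ATTGG was matched in each of the 7 promoters, Tap1 and H2-Aa included, and in 34.5% of all promoters. Its presence does not separate the 7 from each other. AGCAAC was matched in H2-Eb1 alone among the 7, and in 12.3% of all promoters. The interferon gamma activated site was matched in none of the 7 and in 7.18% of all. Such matches describe letters only. An element that departs from the searched letters is left in lower case, so a missing match does not show that the element is absent.

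The classical heavy chain gene H2-D1 (chr17:35262730-35267499) was higher after UNC0642. Its normalized CPM was 23.3 in the library labelled WT replicate 1 and 15.1 in WT replicate 2, 17.7 and 21.8 in Tau replicates 1 and 2, and 30.4 and 33.3 in UNC0642-treated replicates 1 and 2. Both treated libraries lay above every other library, and WT and Tau overlapped. The means were 19.2 ± 5.79 in WT, 19.8 ± 2.91 in Tau and 31.8 ± 2.04 after UNC0642 (SD, n = 2). H2-D1 rose by 0.69 ± 0.19 on the log2 scale (SE) against untreated Tau (unadjusted p = 0.00394, adjusted p = 0.395, edgeR) and by 0.73 ± 0.19 against WT (unadjusted p = 0.00272, adjusted p = 0.179, edgeR). Between Tau and WT the log2 difference was 0.04 ± 0.19. Leaving out any 1 library kept both calls of H2-D1. Without the library labelled WT replicate 1, H2-D1 was also called higher in Tau than in WT, by 0.38 (unadjusted p = 0.0413, edgeR), and its rise against WT after UNC0642 was 1.08 (adjusted p = 0.0346, edgeR). With a term for the sex-linked pattern, the difference between treated and untreated Tau was 0.07 ± 0.22 and was not called. That term rests on the WT pair alone, so it also carries any other difference between the WT libraries, such as that of Prnp.

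H2-K1 (chr17:33996017-34000347), the other classical heavy chain gene of the C57BL/6 reference, was split between the treated mice. Its normalized CPM was 16.6 in the library labelled WT replicate 1, 11.1 in WT replicate 2, 14.6 and 17.1 in the Tau libraries, 15.5 in UNC0642-treated replicate 1 and 33.1 in UNC0642-treated replicate 2. Treated replicate 1 lay within the range of the other groups, and treated replicate 2 was 2.14-fold above it (95% interval 1.85 to 2.47, counting error only). The log2 difference of treated from untreated Tau was 0.63 ± 0.30 and was not called (unadjusted p = 0.0603, edgeR), and the rise of 0.82 ± 0.30 against WT was called (unadjusted p = 0.0204, adjusted p = 0.319, edgeR). UNC0642-treated replicate 2 decided both values: without it they were -0.03 and 0.16, and without treated replicate 1 they were 1.06 and 1.26. The call against WT was also lost without WT replicate 2, with a difference of 0.56 (unadjusted p = 0.128, edgeR). With the term for the sex-linked pattern the difference was 0.06 ± 0.50 between treated and untreated Tau and 0.56 ± 0.35 against WT, where the call was lost. H2-K1 and H2-D1 transcripts were 88.2% identical over 1513 aligned bases, and whether the counting could share reads between them is not given in the sources used here.

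H2-T23 (chr17:36029773-36032855) encodes Qa-1, a nonclassical class I molecule that presents signal peptides of other class I chains to NKG2A receptors. Its CPM was 17.5 in the library labelled WT replicate 1, 13.9 in WT replicate 2, 12.5 and 17.2 in Tau, with 22.5 and 20.5 after UNC0642. The treated libraries were again above the 4 others. The rise was 0.54 ± 0.17 against untreated Tau (unadjusted p = 0.0104, adjusted p = 0.435, edgeR) and 0.45 ± 0.17 against WT (unadjusted p = 0.0249, adjusted p = 0.337, edgeR), while Tau and WT differed by -0.09 ± 0.17. The first call was lost without Tau replicate 1, at 0.32, and without treated replicate 1, at 0.47. The second was lost without WT replicate 2, at 0.29, and without treated replicate 1, at 0.38. Both calls were lost with the term for the sex-linked pattern, which left 0.21 ± 0.27 between treated and untreated Tau and 0.29 ± 0.19 against WT. In both H2-D1 and H2-T23, the 3 libraries with the male pattern lay above the 3 with the female pattern.

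B2m (chr2:122147686-122153083), which encodes the light chain shared by class I molecules, was the only member called between Tau and WT. Its CPM was 37.0 in the library labelled WT replicate 1 and 39.3 in WT replicate 2, against 50.8 and 51.3 in Tau, with 45.5 and 55.9 after UNC0642. None of the 4 libraries labelled Tau, treated or not, overlapped with those labelled WT. The library labelled WT replicate 1, whose Prnp was at the level of the transgenic mice, had the lowest B2m. The separation thus follows the labels, and not the level of Prnp. B2m rose by 0.42 ± 0.11 in Tau (unadjusted p = 0.0033, adjusted p = 0.235, edgeR) and by 0.41 ± 0.11 after UNC0642, both against WT (unadjusted p = 0.00377, adjusted p = 0.194, edgeR). Treated and untreated Tau differed by -0.01 ± 0.11. The rise in Tau was 0.38 to 0.47 when any 1 library was left out. With the sex-linked term it was 0.38 ± 0.13. That term compares Tau with WT replicate 2 alone, as leaving out the library labelled WT replicate 1 does, so it is not a separate check. The rise in treated mice was 0.25 without treated replicate 2 and was then not called (unadjusted p = 0.0706, edgeR). Beside B2m, the summed level of 15 microglia markers was 398 and 418 CPM in WT, 464 and 468 CPM in Tau, and 422 and 413 CPM in treated mice. Of these 15 markers, 3 were called higher in Tau, Tmem119, Olfml3 and C1qa, against 3.72% of all tested genes. In treated against untreated Tau 1 was called higher and 4 lower, against 3.73% and 3.95% of all tested genes. The part of the microglia markers in the difference of B2m was not tested.

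**Figure D1:**
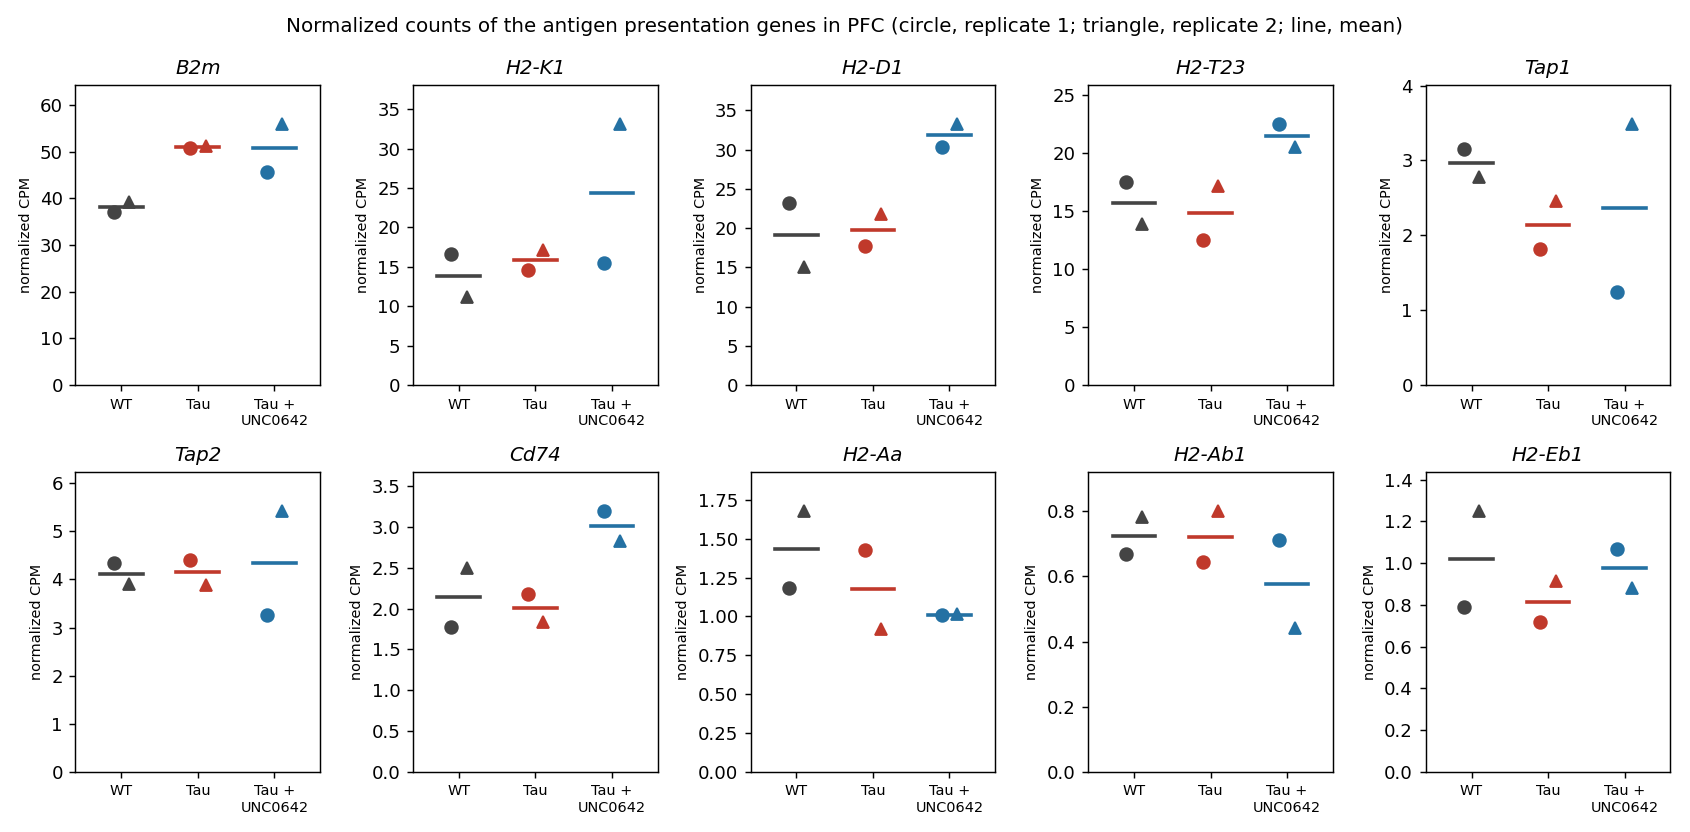
Normalized CPM (y axis, from 0) of the 10 genes in the WT, Tau and UNC0642-treated Tau groups (x axis), with 1 point per library and a line at the mean. H2-D1 and H2-T23 are higher in both treated libraries than in the other 4. B2m is higher in the 4 libraries labelled Tau, treated or not, than in those labelled WT. H2-K1 is high in treated replicate 2 alone, at 33.1.

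Tap1 and Tap2, the subunits of the peptide transporter, were not called in any comparison with all libraries included. Tap1 had 3.15 CPM in the library labelled WT replicate 1, 2.77 in WT replicate 2, 1.82 and 2.46 in Tau, and 1.24 and 3.49 in the treated libraries. Its lowest and highest values were thus both from treated mice. Its log2 differences were -0.48 ± 0.42 for Tau against WT, 0.19 ± 0.43 for treated against untreated Tau and -0.30 ± 0.42 for treated Tau against WT. Tap2 had 4.34 CPM in the library labelled WT replicate 1, 3.91 in WT replicate 2, 4.40 and 3.89 in Tau, and 3.26 and 5.43 in the treated libraries, which again held both extremes. Its group means were 4.12, 4.15 and 4.34 CPM.

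The class II genes were low, with 10 to 64 counts per library, and none was called. Cd74 (chr18:60803848-60812652), which encodes the invariant chain, had 1.77 CPM in the library labelled WT replicate 1, 2.5 in WT replicate 2, 2.18 and 1.83 in Tau, with 3.20 and 2.82 after UNC0642. Both treated libraries were above the rest, and the log2 difference from untreated Tau was 0.57 ± 0.31 (unadjusted p = 0.0954, edgeR). H2-Aa, the alpha chain of I-A, had 1.18 CPM in the library labelled WT replicate 1, 1.68 in WT replicate 2, 1.43 and 0.916 in Tau, and 1.01 and 1.02 in treated mice. Its partner H2-Ab1, the beta chain of I-A, had 0.670 and 0.781 CPM in WT, 0.644 and 0.802 in Tau, and 0.711 and 0.441 in treated mice. H2-Eb1, the beta chain of I-E, had 0.789 and 1.25 CPM in WT, 0.715 and 0.916 in Tau, and 1.07 and 0.882 in treated mice. All 3 groups overlapped for H2-Ab1 and H2-Eb1, whereas for H2-Aa both treated libraries lay below both WT libraries and within the range of Tau. The log2 differences of these 3 genes lay between -0.50 and 0.26, with SEs of 0.40 to 0.53.

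Across the 10 genes, Tau differed from WT in 1, which was higher, against a background of 3.72% of the 20409 tested genes called higher and 6.10% called lower. UNC0642-treated Tau mice had 2 members higher than untreated Tau, where 3.73% of all genes were called higher and 3.95% lower. Against WT they had 4 members higher, H2-K1, H2-D1, H2-T23 and B2m, where 3.77% of all genes were called higher and 5.69% lower. No member was called lower in any of the 3 comparisons with all libraries included. At an adjusted p under 0.05 no member was called by edgeR, where 0.157%, 0.0196% and 0.216% of all genes were called in the same order of comparisons. At an unadjusted p under 0.05 edgeR gave 1, 2 and 4 members, and limma-voom likewise gave 0 adjusted calls. DESeq2 gave 1 adjusted call, H2-D1 against WT. Over the 3 comparisons, 153, 71 and 270 of the 20409 genes reached that threshold with DESeq2. Without the filter on low counts edgeR gave 1, 3 and 3 adjusted calls of members, against 656, 483 and 733 of 34535 genes. The median log2 difference of the 6 class I genes was 0.03, 0.36 and 0.43 in the same order, and that of the 4 class II genes was -0.17, 0.01 and -0.21, while the median of all tested genes was -0.0001, -0.0023 and -0.01. Comparisons that share a group share its libraries.

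**Figure D2:**
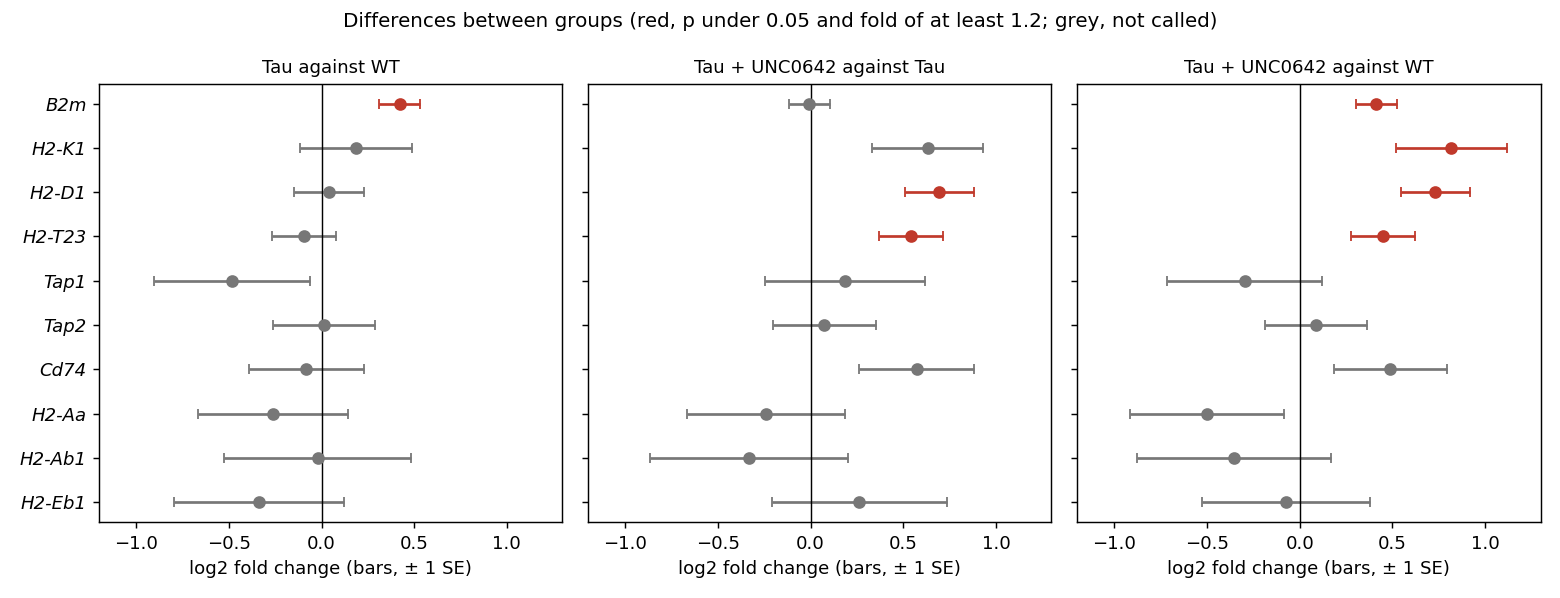
Log2 fold changes (x axis) of the 10 genes (y axis) with bars of ± 1 SE from edgeR's model, for the 3 comparisons, with red points for called genes. B2m alone is red for Tau against WT, at 0.42, and H2-D1 and H2-T23 are red for treated against untreated Tau, at 0.69 and 0.54.

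The 2 UNC0642-treated mice differed in a wider group of class I and interferon response genes. H2-Q4, H2-Q6, H2-Q7, Nlrc5, Psmb8 and Psmb9 are described here because of this split and were chosen, except for H2-Q6, after their values were seen. H2-Q4, a nonclassical heavy chain gene, had 0.770 and 4.41 CPM in treated replicates 1 and 2, and 0.973 to 3.0 CPM in the WT and Tau libraries. H2-Q6 had 2 and 59 counts in the treated libraries, a ratio of 22 after scaling (95% interval 5.82 to 186, counting error only), and 5 to 27 counts in the other 4. H2-Q7 had 2 and 32 counts, a ratio of 11.9 (3.04 to 103). Nlrc5, the transactivator of class I genes, had 0.237 and 2.12 CPM in the treated libraries and 0.547 to 1.43 CPM in the other 4. The immunoproteasome subunits Psmb8 and Psmb9 were 1.75-fold (1.12 to 2.80) and 3.54-fold (1.63 to 8.78) higher in treated replicate 2. Tap1 was 2.80-fold higher (1.72 to 4.78) and Tap2 1.67-fold higher (1.2 to 2.33). H2-D1, H2-T23 and H2-T22, in contrast, differed between the treated libraries by only 1.10-fold, 1.10-fold and 1.02-fold in either direction. Treated replicate 1 was the lowest of the 6 libraries for H2-Q4, H2-Q6, H2-Q7, Nlrc5, Psmb9, Tap1 and Tap2. The summed level of 11 endothelial markers moved the same way, with 182 CPM in treated replicate 1 and 235 CPM in treated replicate 2, against 255 and 248 CPM in WT and 183 and 188 CPM in Tau. Of these 11, 6 were called lower in Tau than in WT, against 6.10% of all tested genes. In treated against untreated Tau 1, Cldn5, was called higher, against 3.73% of all tested genes. Of the 20 interferon response genes, 17 were higher in treated replicate 2 than in treated replicate 1, with a median of 1.43-fold, while the median of all tested genes was 1.00-fold. A difference of 1.5-fold or more was reached by 9 of the 20 upward and by 1 downward, against 8.26% and 9.29% of all genes. Ifi44 was 4.97-fold higher, Iigp1 2.68-fold, Usp18 2.35-fold and Oasl2 2.11-fold, and the first 3 of these were also chosen after their values were seen. Between replicates 1 and 2 of WT and of Tau, 6 of the 20 were higher in replicate 2, with medians of 0.856-fold and 0.831-fold. In WT 1 was 1.5-fold or more higher and 3 lower, against 8.26% and 8.92% of all genes. In Tau 0 were higher and 6 lower by that much, against 11.7% and 7.23%. The WT libraries also differed in H2-Q4 (0.404-fold, 0.257 to 0.621), Nlrc5 (0.433-fold, 0.214 to 0.836) and Psmb9 (1.68-fold, 1.01 to 2.84). For H2-Q6, H2-Q7 and Psmb8 the interval between the WT libraries included 1. The part of the endothelial markers and of the interferon response genes in the split of the treated mice was not tested. H2-Q6 and H2-Q7 transcripts were 94.6% identical over 1030 bases and H2-Q4 was 91.4% identical to H2-K1 over 945 bases. H2-Q4 was also 91.6% identical to H2-D1 over 940 bases and 93.1% identical to H2-T22 over 319 bases. The division of reads among all of these genes is therefore uncertain.

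**Figure D3:**
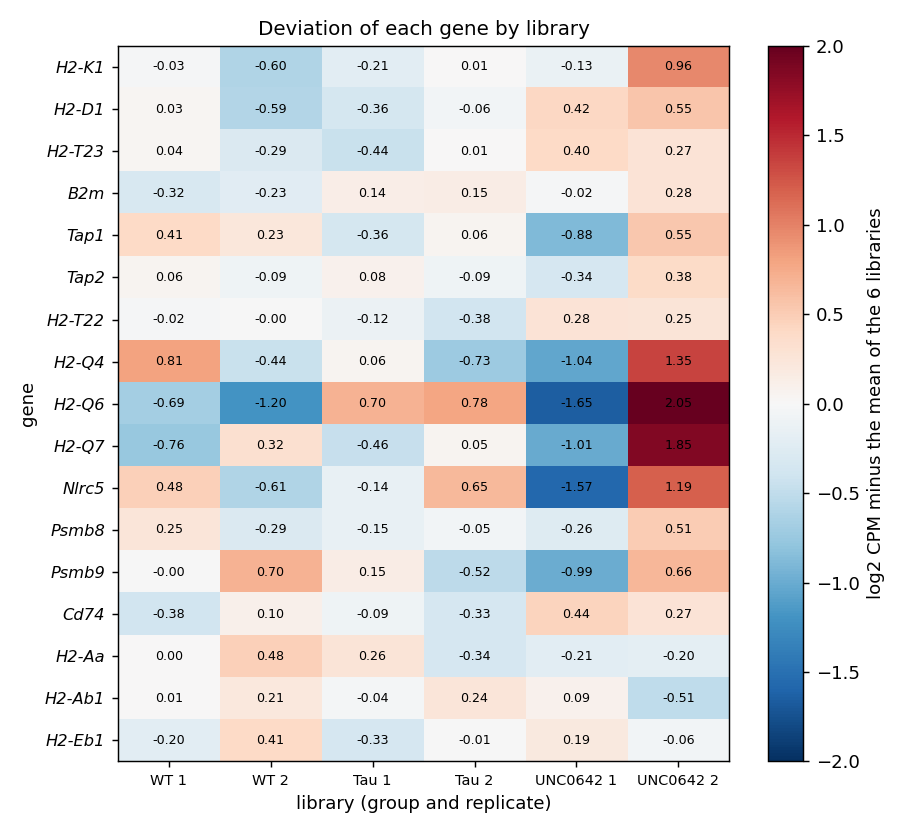
Log2 CPM of each gene (rows) in each library (columns) minus the mean of the 6 libraries, as color and number, with red above and blue below the mean. H2-Q6 runs from -1.65 in UNC0642-treated replicate 1 to 2.05 in treated replicate 2, whereas H2-D1 has 0.42 and 0.55 in the same libraries.

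The other genes of the pathway were called at shares to be read against the backgrounds of 3.72% to 3.77% higher and 3.95% to 6.10% lower among all tested genes. Each list had 0 to 2 genes called in a direction per comparison. Among 13 tested of 26 other class I and class I-like genes, none was called in Tau against WT and H2-T22 was the 1 called in treated against untreated Tau. H2-T22, which encodes a nonclassical heavy chain recognized by gamma delta T cells, had 13.8 CPM in the library labelled WT replicate 1, 13.9 in WT replicate 2, 12.8 and 10.7 in Tau, and 16.9 and 16.7 in treated mice. The treated libraries were above the others, and the rise against untreated Tau was 0.51 ± 0.14 (unadjusted p = 0.0042, adjusted p = 0.395, edgeR). Against WT, H2-Q6 was called higher (log2 2.44 ± 0.96), although treated replicate 1 was below both WT libraries, and Fcgrt, the neonatal Fc receptor chain, fell by 0.49. The medians of these 13 genes were -0.27, 0.51 and 0.11 for Tau against WT, treated against untreated Tau and treated Tau against WT.

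Among 11 genes of class I peptide supply and loading, Calr, the chaperone calreticulin, was called higher in Tau (0.29 ± 0.07, adjusted p = 0.207, edgeR) and in treated Tau mice (0.37 ± 0.07, adjusted p = 0.0824, edgeR) against WT. Pdia3, the thiol oxidoreductase of the loading complex, was called higher in treated Tau mice against WT (0.30 ± 0.07). None of the 11 was called between treated and untreated Tau. Of 8 tested genes of class II loading and processing, only Ctss was called, higher in Tau than in WT by 0.31 ± 0.10. Ctss encodes cathepsin S, which trims the invariant chain and is abundant in microglia.

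Ciita, the master regulator of class II transcription, was called among 13 regulators. Its CPM was 2.56 in the library labelled WT replicate 1, 2.03 in WT replicate 2, 1.25 and 1.55 in Tau, with 3.26 and 2.43 after UNC0642. Tau was below both other groups for Ciita, and the rise after UNC0642 was 1.02 ± 0.33 against untreated Tau (unadjusted p = 0.0117, adjusted p = 0.444, edgeR). The class II genes were not called in that comparison, as given above. Of 20 interferon response genes, Stat2, a component of the ISGF3 complex, fell by 0.39 in treated against untreated Tau and by 0.41 in treated Tau against WT. Oasl2 was called higher in treated Tau against WT, by 1.04 ± 0.37, and Ifit3 was called lower, with a change of -0.45 ± 0.18. The interferon response genes had medians of -0.19, 0.24 and 0.02.

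**Figure D4:**
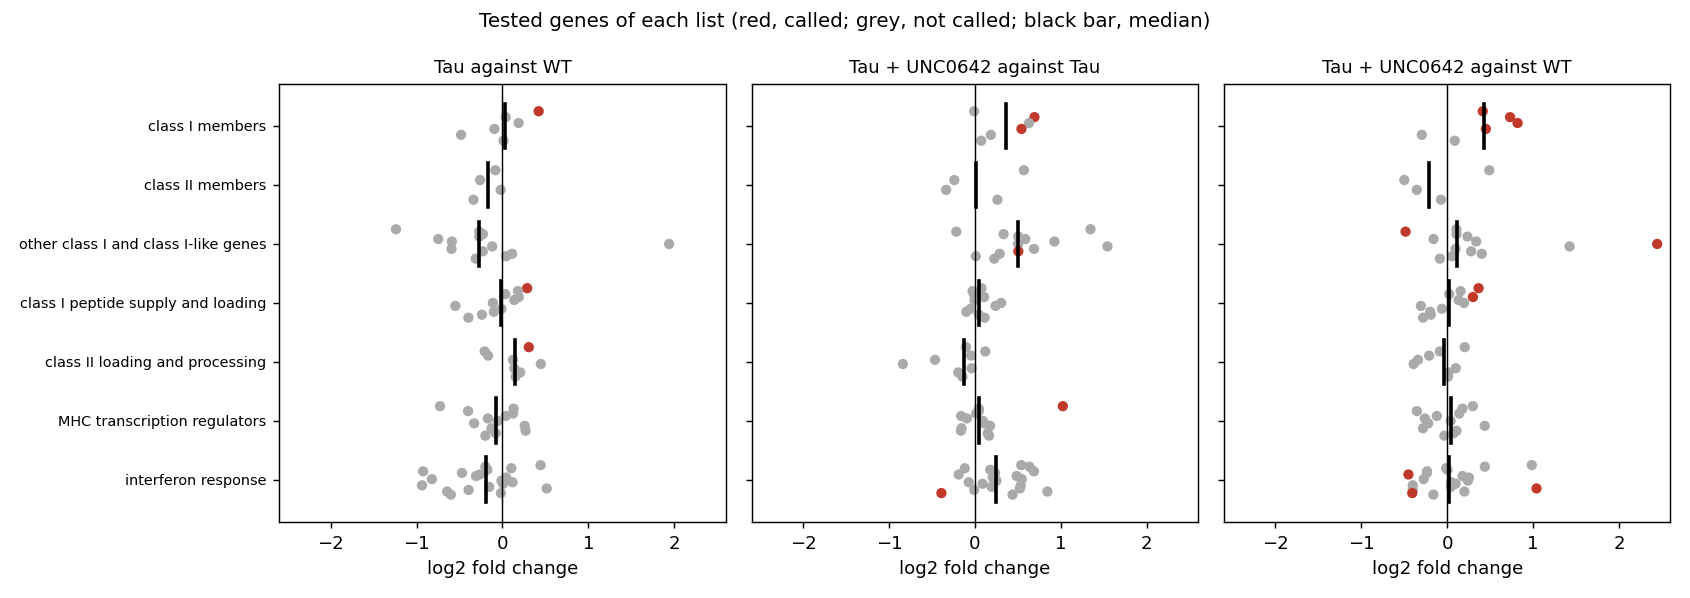
Log2 fold changes (x axis) of the tested genes of each list (y axis) in the 3 comparisons, with red points for called genes, grey points for others and a black bar at the median. The other class I genes have their median at 0.51 for treated against untreated Tau, with 1 gene called.

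The other genes that lie between H2-K1 and H2-T23 on chromosome 17 were counted as neighbors. Of 77 tested neighbors outside the pathway lists, where the microglia marker Aif1 was kept, 0 were called in Tau against WT by edgeR. At an unadjusted p under 0.05 there were 2. In treated against untreated Tau 3 were called higher and 8 lower, which is 3.90% and 10.4% of the 77, against 3.73% and 3.95% of all genes. In treated Tau against WT 2 were higher and 10 lower, which is 2.6% and 13%, against 3.77% and 5.69% of all genes. Among the genes whose pattern over the 6 libraries was closest to the mean of the class I members were Mrpl55, Rdh13, Gm10193, Trappc6a and Odc1. Their root mean square difference in standardized log2 CPM was 0.11 to 0.21, among 16869 genes ranked. For the class II mean they were Cep89, St6gal2, Plch1, Sigirr and Nup210l, with 0.083 to 0.18.

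Levels were compared between genes per exon length, as RPKM. B2m was highest, with a mean over the 6 libraries of 54.2 RPKM (43.0 to 65.0). H2-D1 followed at 9.14 (5.85 to 12.9), H2-K1 at 6.14 (3.79 to 11.3) and H2-T23 at 6.01 (4.33 to 7.79). H2-D1 was above H2-K1 in 6 of 6 libraries, although their ranges overlapped, and H2-K1 and H2-T23 were not separated. The next levels were those of Cd74 at 1.42 RPKM and Tap2 at 1.11 RPKM, whose ranges overlapped. H2-Eb1, Tap1, H2-Aa and H2-Ab1 followed at 0.482, 0.455, 0.317 and 0.263 RPKM, each overlapping with its neighbor. B2m was thus above H2-D1, H2-T23 above Cd74 and Tap2 above H2-Eb1 without overlap. The 4 class II genes together summed to 2.04 to 2.99 RPKM and H2-K1 and H2-D1 to 9.64 to 24.2 RPKM.

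**Figure D5:**
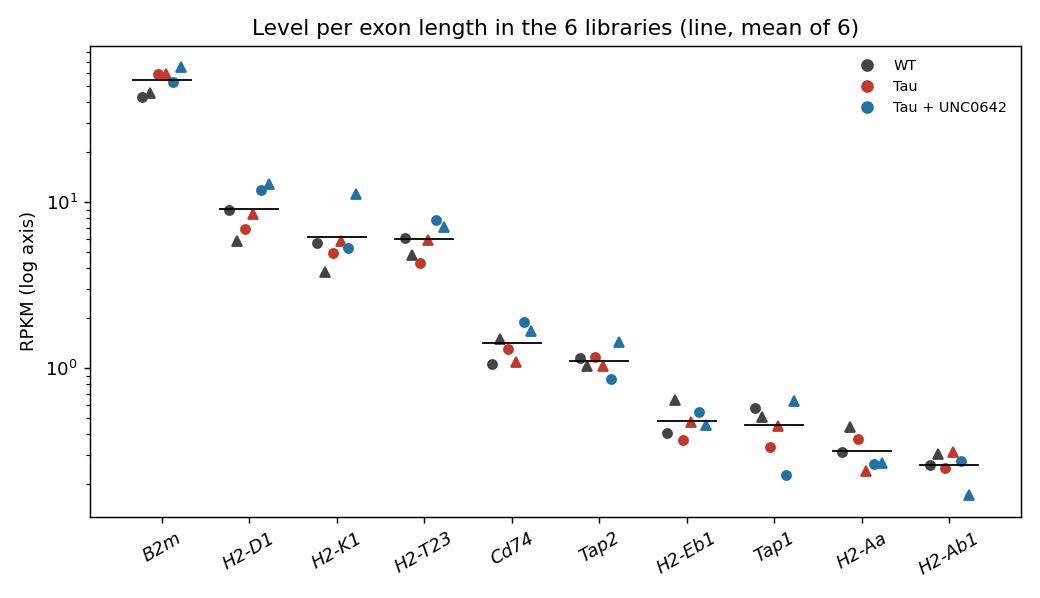
RPKM (y axis, log scale) of the 10 genes (x axis, in order of their mean), with 1 point per library and a line at the mean of 6. B2m stands apart at 54.2 and the class II genes H2-Aa and H2-Ab1 are lowest, at 0.317 and 0.263.

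The background of these mice mixes 2 MHC haplotypes, H-2b of C57BL/6 and H-2k of C3H. H-2b mice lack the I-E alpha chain, whose gene is defective there, and H-2k mice make it. H2-Ea-ps, the entry for that gene, had 0 counts in all 6 libraries, which allows up to 0.107 to 0.178 CPM, while its partner H2-Eb1 had 16 to 32 counts. Alleles are not recorded in counts per gene, so the haplotype of each mouse was not analysed here. Any reads of H-2k alleles would have been aligned to the C57BL/6 sequence, and any part of this in the differences of H2-K1, H2-D1 and the H2-Q genes between mice was not tested. Markers of other cells that carry class II were summed beside these genes. The sum of 11 dendritic cell and B cell markers was 31.0 and 34.1 CPM in WT, 36.7 and 31.0 CPM in Tau, and 39.9 and 34.8 CPM in treated mice. The treated libraries were above WT, as for Cd74. Unlike for Cd74, Tau replicate 1 was above treated replicate 2. The part of this sum in the level of Cd74 was not tested. Of this sum, Zbtb46 held 22 to 29.7 CPM and Flt3 4.85 to 7.76 CPM. Summed levels of 8 border macrophage markers were 12.5 to 20.0 CPM, with overlap of all groups, and those of 9 T cell, monocyte and neutrophil markers were 1.36 to 3.0 CPM. In the last list, Cd4, which microglia and macrophages can also express, had 16 to 30 counts per library, and the T cell genes Cd3e, Cd3g and Cd8a had 0 to 4 counts, with Cd3g at 0 in all 6. The B cell genes Cd79a, Cd79b, Ms4a1 and Pax5 had 0 to 6 counts per library.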

How the data were processed

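PFC RNA of 2 mice per group was analysed. Per the labels and the methods of the study, stranded libraries were depleted of ribosomal RNA, reads were trimmed with Cutadapt and aligned with TopHat2 to RefSeq mRNAs (mm10 in the submitters' processing notes), and the authors deposited featureCounts counts per gene, without normalization. The strand and multi-mapping settings of the counting are not given in the sources used here. Spreadsheet dates stood in place of 26 gene names in 2 of the files, whose rows were matched by their order. Symbols were matched to GENCODE M21 (GRCm38), where 53669 had 1 gene, for coordinates and exon lengths.

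Counts were analysed with edgeR 4.0.16 in R 4.3.3. filterByExpr (minimum count 10, total 15) kept 20409 genes, and TMM factors were 0.966 to 1.04. All 6 libraries entered 1 quasi-likelihood fit with 3 group means, with a biological coefficient of variation of 12.3%, and p-values were adjusted by Benjamini-Hochberg over all tested genes. Standard errors follow from the fold change and the F statistic. CPM use the scaled library sizes, and log2 CPM a prior count of 2. The fit was checked on simulated data. Intervals of ratios are exact binomial at 95% and cover counting error only. Motifs were searched with Python 3.11.15, and transcripts aligned with blastn 2.17.0.

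Named genes were the 10 members, pathway genes called in at least 1 comparison, H2-Ea-ps, the 5 genes nearest to each class mean, and Prnp, Xist and Ddx3y. H2-Q4, H2-Q7, Nlrc5, Psmb8, Psmb9, Ifi44, Iigp1, Usp18 and the cell type markers named singly fall outside this rule and were chosen after their values were seen. The members and lists were chosen with earlier results of these data known. Alternatives were DESeq2 1.42.0 (size factors and Wald test), library size only, limma-voom (limma 3.58.1), other filters, fits of 2 groups, a replicate block, other thresholds and fits without each library. The term for the sex-linked pattern was added after the data were seen.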

Additional observations from a re-analysis of the deposited data

How the results depend on the processing

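The calls rest on an unadjusted threshold: at an adjusted p under 0.05, 0 members were called in each of the 3 comparisons, and at a fold of 1.5 there were 0 in Tau against WT, 1 in treated against untreated Tau and 2 in treated Tau against WT. With the term for the sex-linked pattern, chosen after seeing the data, 2, 0 and 2 members were called in the same order. Leaving out 1 library gave 1 to 2, 1 to 3 and 2 to 4 called members. The count of 2 in Tau against WT came without the library labelled WT replicate 1, that of 1 in treated against untreated Tau without Tau replicate 1, that of 3 there without either WT library, and that of 2 in treated Tau against WT without WT replicate 2. Same-numbered libraries did not deviate together (r of -0.0344, -0.00335 and -0.0212 over genes), and a replicate block gave 1, 2 and 4 called members, as did the fit without it.

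Directions of members that were not called were not stable. Scaling by library size alone turned H2-D1 (-0.033) and Tap2 (-0.058) in Tau against WT and B2m (0.023) in treated against untreated Tau. The sex-linked term turned H2-T23 in Tau against WT (0.081), B2m (0.079), Tap2 (-0.075) and H2-Aa (0.26) in treated against untreated Tau, and H2-Eb1 (0.29) in treated Tau against WT. Without 1 library, the log2 difference of Tau from WT ranged from -0.073 to 0.50 for H2-K1, -0.24 to 0.38 for H2-D1, -0.33 to 0.13 for H2-T23, -0.082 to 0.097 for Tap2, -0.31 to 0.19 for Cd74, -0.64 to 0.015 for H2-Aa, -0.17 to 0.14 for H2-Ab1 and -0.63 to 0.034 for H2-Eb1. For treated against untreated Tau it ranged from -0.029 to 1.06 for H2-K1, -0.17 to 0.13 for B2m, -0.77 to 0.71 for Tap1, -0.35 to 0.38 for Tap2 and -0.50 to 0.14 for H2-Aa. For treated Tau against WT it ranged from -1.25 to 0.24 for Tap1, -0.34 to 0.40 for Tap2 and -0.37 to 0.30 for H2-Eb1. The value of -1.25 for Tap1 came without treated replicate 2 and lay opposite in direction to the members called higher. The cause was not tested. The class II genes had 10 to 64 counts per library.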
